A study of Mus musculus with 4 samples.

Results

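The cells described here are mesenchymal tumour cells of mouse pancreatic ductal adenocarcinoma that carried transcripts of decorin (Dcn) or dermatopontin (Dpt). They were chosen from the measured counts. A barcode had to hold at least 5000 unique molecular identifiers (UMIs, 1 per captured RNA molecule) with at most 20% of them mitochondrial. It had to reach 20 UMIs per 10000 of Vim, the intermediate filament of mesenchymal cells, and at least 1 UMI of Cdkn2a, the tumour suppressor locus read here as a tumour marker. The leukocyte genes Ptprc and Laptm5 had to stay under 2, the ductal keratin Krt19 under 10, and the mitotic genes Top2a, Cenpf, Ube2c and Birc5 under 3 UMIs per 10000. No more than 1 UMI of the fibroblast genes Lum, Mfap5 and Pdgfra was allowed, and Dcn and Dpt together had to give at least 3 UMIs. In all, 4127 of 56375 barcodes met the rule: control gave 1745 of 13120, PH 1468 of 18589, G 248 of 16748 and GPH 666 of 7918.

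Each of the 4 groups was 1 droplet library (10x Genomics). Tumour pieces from 3 animals per group were pooled and dissociated with enzymes before capture. Control animals received PBS, PH animals paricalcitol and hydroxychloroquine, and G animals gemcitabine. The GPH group was taken from its title, because its treatment label breaks off after the gemcitabine dose; by that title its animals received gemcitabine with paricalcitol and hydroxychloroquine. Strain, tumour model, age and treatment time are not given in the sources used here. With 1 library per group nothing could be tested, and no p-value is given. Intervals in brackets are 95% intervals and cover counting error only, not the spread between animals.

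Decorin is a small leucine-rich proteoglycan that binds collagen fibrils and holds TGF-beta, and dermatopontin is an extracellular matrix protein that binds decorin. Both are usually products of fibroblasts, and carcinoma cells that have passed through an epithelial-mesenchymal transition can make fibroblast-type matrix. Pleiotrophin (Ptn) is a heparin-binding growth factor. Haem oxygenase 1 (Hmox1) breaks down haem and is induced by oxidative stress. Paricalcitol activates the vitamin D receptor, hydroxychloroquine raises lysosomal pH, which keeps autophagosome contents from being degraded, and gemcitabine is a nucleoside analogue that stops DNA synthesis.

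The promoters of Dpt, which the rule uses, and of Ptn and Col3a1 are printed below, since they are the regulatory sequences next to genes the description turns on. They come from RefSeq on GRCm38.p6, end before both the RefSeq and the GENCODE start of the gene, and run 5′ to 3′. Capitals mark the only match to the 4 motifs searched on both strands of the 250 bases before each RefSeq start.
Dpt, chr1:164796413-164796643, plus strand: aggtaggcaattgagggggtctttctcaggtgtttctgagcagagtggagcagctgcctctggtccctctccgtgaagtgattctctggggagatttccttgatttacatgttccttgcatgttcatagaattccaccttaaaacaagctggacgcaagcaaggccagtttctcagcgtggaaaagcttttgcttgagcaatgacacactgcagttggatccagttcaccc
Ptn, chr6:36810221-36810429, minus strand: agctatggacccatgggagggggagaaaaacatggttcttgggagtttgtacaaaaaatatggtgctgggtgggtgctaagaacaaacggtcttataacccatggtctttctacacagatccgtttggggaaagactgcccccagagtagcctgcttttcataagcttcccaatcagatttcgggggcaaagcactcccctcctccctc
Col3a1, chr1:45311288-45311537, plus strand: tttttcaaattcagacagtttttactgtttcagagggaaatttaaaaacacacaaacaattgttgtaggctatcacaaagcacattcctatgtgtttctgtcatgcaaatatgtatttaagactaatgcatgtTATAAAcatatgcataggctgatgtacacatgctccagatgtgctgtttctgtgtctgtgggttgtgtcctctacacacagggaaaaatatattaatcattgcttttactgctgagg
The motifs were TGANTCA (AP-1 type), TGACNNNGC (antioxidant response element core), TGACGTCA (cyclic AMP response element) and TATAAA. Over the same 250 bases of all 32851 promoters of the table, 6.75% held TGANTCA, 10.2% TGACNNNGC, 1.55% TGACGTCA and 12.4% TATAAA. The Col3a1 promoter held TATAAA at positions -117 to -112 from the start. No match says only that these letters are not in this window. Promoters of Dcn, Hmox1 and Ccl7 were looked for and are named only. On mm10, Dcn lies on chr10:97479609-97518143 on the plus strand and Hmox1 on chr8:75093621-75100589 on the plus strand. Dpt lies on chr1:164796644-164824266 on the plus strand and Ptn on chr6:36714929-36810220 on the minus strand.

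The libraries differed in ways that touch every comparison between them. They held 143298547 to 190110092 UMIs, and the median depth of a member was 12803 UMIs (control), 13410 (PH), 11348 (G) and 16134 (GPH). Summed over the Y-linked genes Kdm5d, Uty, Eif2s3y and Ddx3y, members gave 0.196 CPM (the UMIs of a gene scaled to the same total of all members' UMIs in each library) in control and 0.267 CPM in PH. In G and GPH they gave 20.5 and 18.1 CPM. Members of the gemcitabine-treated libraries therefore carried Y-linked RNA and those of the other libraries nearly none, while Ddx3y itself had no UMI in members of any library. Gemcitabine and this difference in Y-linked RNA cannot be told apart in any comparison of G or GPH with control or PH. Whether the groups had animals of the same sex or tumours of the same line is not given in the sources used here. Immune barcodes of control, PH, G and GPH held the X inactivation RNA Xist at 919.3, 1000, 1139 and 1961 CPM. Y-linked RNA of these immune barcodes stood at 0, 0, 0.3491 and 0 CPM. In Krt19-high barcodes it stood at 1.635, 1.229, 32.15 and 37.07 CPM. The difference in Y-linked RNA was thus seen in members and Krt19-high barcodes but not in immune barcodes. Its source was not tested. Across all measured genes the median log2 ratio was -0.02 for PH and for G against control, but 0.20 for GPH against control, 0.19 for GPH against G and 0.17 for GPH against PH. Ratios also moved with transcript length: in GPH against control the median log2 ratio was -0.28 in the class of genes with the shortest transcripts and 0.54 in that with the longest, of 4 classes of equal size. The 4 libraries shared 4 member barcodes. By doublet score, 246, 348, 18 and 24 members of control, PH, G and GPH were among the barcodes a doublet rate of 0.8% per 1000 barcodes would mark. Over all barcodes, 1377 of 13120, 2764 of 18589, 2244 of 16748 and 502 of 7918 were so marked. The marked part of members was larger than that of all barcodes in control and PH and smaller in G and GPH.

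Among the barcodes that met every criterion but that on Dcn and Dpt, members made up 36.1% in control (34.7 to 37.5) and 20.9% in PH (19.9 to 21.9). The share was 29.0% in G (26.0 to 32.2) and 62.4% in GPH (59.4 to 65.3). GPH was the highest and PH the lowest, by counts within single libraries. Depth moved with these shares, so each barcode was also thinned to 5000 UMIs at random. The shares then were 20.4%, 9.40%, 17.9% and 33.3%, in the same order of libraries, and GPH stayed highest and PH lowest. With Dcn alone at 3 UMIs they were 23.6%, 8.78%, 13.1% and 15.6%, so that control and not GPH was highest. Immune barcodes of at least 5000 UMIs, which should lack both genes, were taken for the level of free RNA. Of these, 1.26% of 159 in control, 3.29% of 152 in PH, 0.561% of 1784 in G and 5.26% of only 19 in GPH held 3 or more. They were not thinned and were shallower, so free RNA at the depth of the compared barcodes may be higher. Their median depth was 7225, 7066, 7806 and 8125 UMIs, against 11879, 10483, 11177 and 15320. Barcodes just outside the threshold, with 2 UMIs of Dcn and Dpt, numbered 419, 626, 65 and 103, and those just inside, with 3 UMIs, numbered 276, 359, 38 and 88. The numbers fall off with no gap at the threshold.

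The members split by which gene had given the UMIs, and the split differed between libraries. In control, 16.0% held Dcn alone, 65.5% both genes and 18.5% Dpt alone. In PH these shares were 11.2%, 46.7% and 42.1%, and in G they were 15.7%, 40.7% and 43.5%. In GPH only 1.65% held Dcn alone (11 cells), 33.3% both and 65.0% Dpt alone. Y-linked RNA also differed along this split within the gemcitabine-treated libraries. In G it stood at 2.19 CPM in Dcn-only members (0.0554 to 12.2), 24.0 CPM in members with both and 22.6 CPM in Dpt-only members. In GPH no such UMI was seen in the 11 Dcn-only members, where the 95% interval reaches 23.3 CPM. The other members held 10.4 CPM (both genes) and 21.8 CPM (Dpt only), both under that limit.

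**Figure D1:**
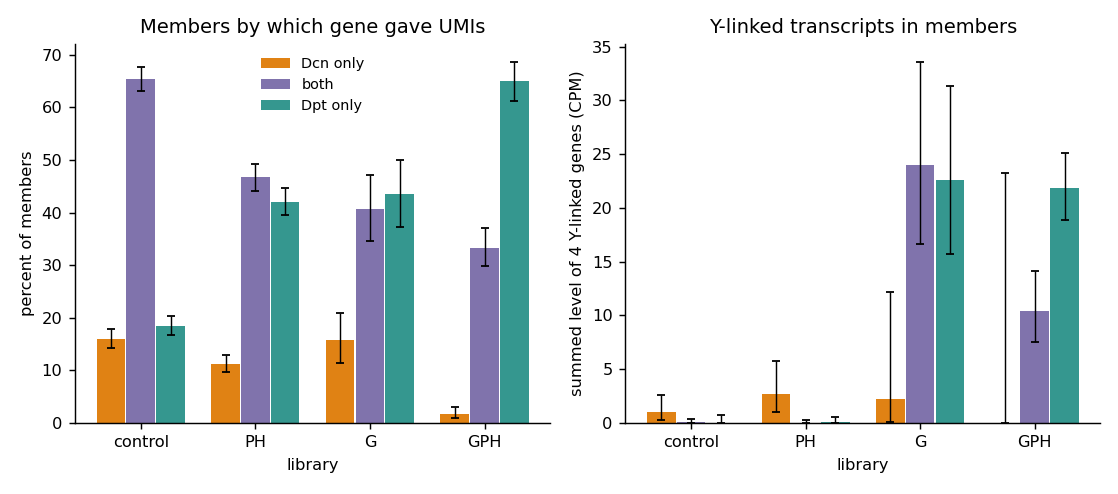
Left, percent of members (vertical axis) with UMIs of Dcn only, of both genes or of Dpt only in each library; right, summed level of 4 Y-linked genes (CPM) in the same members. Bars are pooled values with 95% counting intervals; Dpt-only members reach 65.0% in GPH, and Y-linked RNA is seen in G and GPH but hardly in control or PH.

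The label was checked against markers. In CPM, 33 host fibroblast barcodes of the 4 libraries, defined by at least 1000 UMIs, low leukocyte and Krt19 counts, at least 5 UMIs of Lum, Mfap5 and Pdgfra and no Cdkn2a, held 6540 of Dcn, and all members together held 357. Col1a1, the main fibrillar collagen of fibroblasts, stood at 9576 CPM in the fibroblast barcodes and 49.5 CPM in members. Col3a1 stood at 13676 and 518 CPM. Serping1 gave 2008 CPM in fibroblast barcodes and 1.02 CPM in members, and Col14a1 gave 606 and 0.0544 CPM. Xist, made by cells with 2 X chromosomes, was at 880 CPM in fibroblast barcodes and 5.00 CPM in members. Spp1 (osteopontin), on the other hand, was at 322 CPM in fibroblast barcodes and 2592 CPM in members. Krt18 and Krt8, keratins of simple epithelia, were at 445 and 369 CPM in members, and the ductal transcription factor Sox9 at 647 CPM. The epithelial adhesion genes Epcam and Cdh1 were at 0.218 and 2.40 CPM. Lum, Mfap5 and Pdgfra are limited by the rule itself, whereas Serping1, Col14a1 and Clec3b (466 and 1.81 CPM) are not, and these 3 were near 0 in members. The whole list of 18 host fibroblast markers summed to 277, 270, 306 and 297 CPM in members of control, PH, G and GPH, and 2 of its genes, Mfap4 and Gsn, reached 20 CPM in each library. Both were also higher in members than in zero cells of every library, Mfap4, a microfibril protein, by 3.56-fold to 5.66-fold and Gsn (gelsolin) by 1.46-fold to 1.81-fold. The part of fibroblast RNA in these values was not tested.

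Summed over each list, 10 macrophage markers gave 58.0, 52.6, 157 and 10.6 CPM in members of control, PH, G and GPH. For 10 T and NK cell markers the sums were 24.2, 37.3, 90.3 and 22.3 CPM, for 10 endothelial markers 38.5, 27.5, 47.6 and 28.1 CPM, and for 8 neutrophil markers 4.07, 2.83, 37.4 and 1.06 CPM. At least 20 CPM was reached by at most 1 gene of any of these lists in any library. G members held the most immune RNA, with the macrophage lysozyme gene Lyz2 at 108 CPM. The 9 pericyte markers summed to 11.8, 13.3, 31.0 and 34.0 CPM with none at 20 CPM, and the 9 Schwann cell markers to at most 6.61 CPM.

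The question of how members differed from the remaining mesenchymal tumour cells was asked within each library. The other cells met the same criteria and held no UMI of Dcn or Dpt: control had 1969 of them, PH 3771, G 412 and GPH 177. Because the rule defines both sides, what follows is a description and no test. Of 3877 genes measured in all 4 libraries (at least 20 CPM in members or in zero cells), 77 (1.99%) were at least 1.5-fold higher in members in every library and 13 (0.335%) at least 1.5-fold lower. Members were the deeper cells in each library, and longer transcripts had higher ratios, with a median log2 ratio from -0.12 in the class of shortest to 0.37 in that of longest transcripts in G. With the median of each length class subtracted, an alternative added after the data had been seen, 46 genes were higher and 13 lower.

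Among the genes picked by the naming rule, Hmox1 and Ccl7 led the higher genes by their smallest ratio. Mfap4, given above, and Prelp, given below, had larger smallest ratios but were not picked by that rule. Hmox1 stood at 180 CPM in members and 60.8 CPM in zero cells of control, at 114 and 42.0 CPM in PH, at 392 and 113 CPM in G and at 767 and 269 CPM in GPH. The ratio was 2.72-fold to 3.46-fold. Ccl7, a chemokine that attracts monocytes, stood at 182 against 72.0 CPM in control, 156 against 60.0 CPM in PH, 268 against 65.5 CPM in G and 386 against 77.0 CPM in GPH. The ratio was 2.53-fold in control and 5.02-fold in GPH. Ptn stood at 61.1 against 12.1 CPM in control, 44.5 against 14.6 CPM in PH, 424 against 111 CPM in G and 327 against 163 CPM in GPH. Its excess was 5.05-fold in control and 2.01-fold in GPH, where zero cells already held Ptn.

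Several matrix genes were also higher. Col3a1, a fibrillar collagen, was 1.90-fold to 2.22-fold higher in members, Ogn (osteoglycin, a small leucine-rich proteoglycan) 1.87-fold to 3.33-fold, and Aebp1, a secreted collagen-binding protein, 1.98-fold to 2.57-fold. Acta2, smooth muscle actin, was 1.91-fold higher in GPH and 4.95-fold higher in PH, and Mylk, the myosin light chain kinase, 2.25-fold to 4.22-fold higher. The contractile list did not share this: of its 11 measured genes these 2 were at least 1.5-fold higher in all libraries, 3 were above 1 and 5 below 1 in all. Of the 9 collagen genes measured, 7 were above 1 in all libraries and Col3a1, Col4a1, Col4a2 and Col5a1 were at least 1.5-fold higher in all. Among proteoglycans outside the rule, Bgn, Ogn and Prelp were measured, and all 3 were higher in every library. Prelp, a small leucine-rich proteoglycan, stood at 71.4 against 11.2 CPM in control, 34.3 against 5.03 CPM in PH, 53.5 against 7.99 CPM in G and 72.0 against 17.6 CPM in GPH. Its ratio of 4.10-fold to 6.82-fold was larger than that of Hmox1, and it is named here after its values were seen, since its level in PH was under the 50 CPM of the naming rule. Vcam1, an adhesion molecule for leukocytes, was 1.80-fold to 3.33-fold higher, and Cp (ceruloplasmin, a copper-carrying ferroxidase) 1.81-fold to 3.75-fold. Regulators on the list were Zfp36l1, which speeds decay of AU-rich mRNAs (2.04-fold to 2.79-fold), Id3, an inhibitor of helix-loop-helix factors (2.04-fold to 3.07-fold), Gem, a small GTPase (1.91-fold to 2.24-fold), and Nfia, a transcription factor (1.76-fold to 1.88-fold).

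Lower in members were keratins, proliferation genes and sterol genes. Krt18 stood at 537 against 853 CPM in control, 457 against 797 CPM in PH, 225 against 815 CPM in G and 262 against 886 CPM in GPH. The deficit was 1.59-fold in control and 3.62-fold in G. Krt8 was 1.44-fold to 3.07-fold lower. The epithelial list was split: of its 5 measured genes 3 were below 1 and 2 above 1 in all 4 libraries. Sox9 was higher in members, at 423 against 276 CPM in control and 719 against 478 CPM in PH. In G it stood at 961 against 439 CPM and in GPH at 941 against 659 CPM. Slurp1, a secreted Ly6-family protein, was 1.87-fold to 4.50-fold lower, Fabp5, a fatty acid carrier, 1.82-fold to 3.58-fold, and Wfdc2, a secreted whey acidic protein, 1.69-fold to 2.31-fold. Dut and Dctpp1, which clean the nucleotide pool, were 1.62-fold to 2.74-fold and 1.40-fold to 1.92-fold lower, and Stmn1, which destabilises microtubules, 1.53-fold to 3.09-fold. Hmga1, a chromatin protein of dividing cells, was 1.52-fold to 2.01-fold lower, Mgst3 1.47-fold to 2.26-fold and Tpm2 1.42-fold to 1.59-fold. All 8 measured genes of cholesterol synthesis were below 1 in all 4 libraries, with Cyp51, which demethylates lanosterol, 1.48-fold to 2.43-fold lower and a list median log2 ratio of -0.46 to -1.03. All 7 measured S phase genes were below 1 in all 4 libraries. Of all measured genes, 37.1% were above and 21.5% below 1 in all 4.

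**Figure D2:**
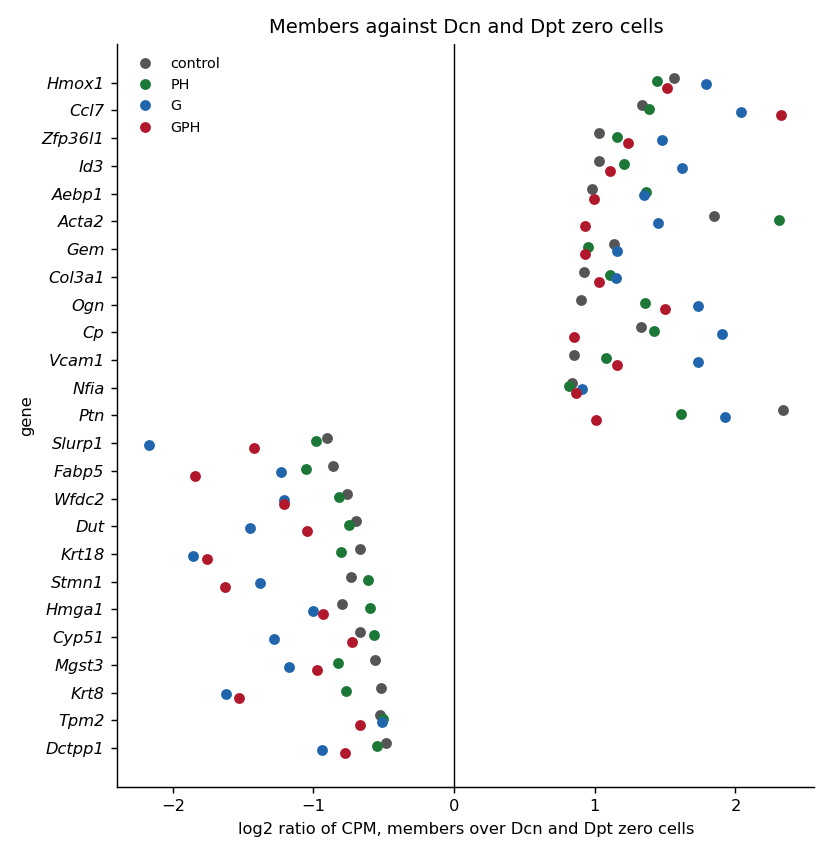
Log2 ratio of CPM (horizontal axis) of members over cells without Dcn and Dpt UMIs for the 24 genes chosen by the naming rule and Ptn, with 1 point per library. The 13 upper genes lie above 0 and the 12 lower genes below 0 in all 4 libraries, with Slurp1 lowest in G.

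Within members, levels also differed by the number of Dcn and Dpt UMIs. Ptn went from 37.3 CPM in control cells with 3 to 4 UMIs to 87.9 CPM in those with 20 or more, from 39.3 to 70.3 CPM in PH, from 250 to 977 CPM in G and from 227 to 481 CPM in GPH. Col3a1 went from 394 to 532 CPM in control, 364 to 521 CPM in PH, 398 to 859 CPM in G and 613 to 1062 CPM in GPH. Slurp1 went from 94.4 to 83.5 CPM in control, 55.3 to 26.1 CPM in PH, 35.4 to 10.98 CPM in G and 51.4 to 10.5 CPM in GPH. Hmox1, Ccl7 and Sox9 were higher and Slurp1 lower in the top than in the bottom group of members in every library. Acta2 was higher there in control (202 against 121 CPM), PH (59.0 against 44.2) and G (444.5 against 163). In GPH Acta2 was lower there (226 against 239 CPM). Krt18 was lower there in control, PH and GPH but not in G, where the top group held 28 cells (291 against 280 CPM). Depth differed along this grouping: the median depth of the top group was 16588, 18742, 9688 and 21238 UMIs against 12020, 12251, 10822 and 14289 in the bottom group, so the top group was deeper in control, PH and GPH and shallower in G. Its part in these differences was not tested.

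**Figure D3:**
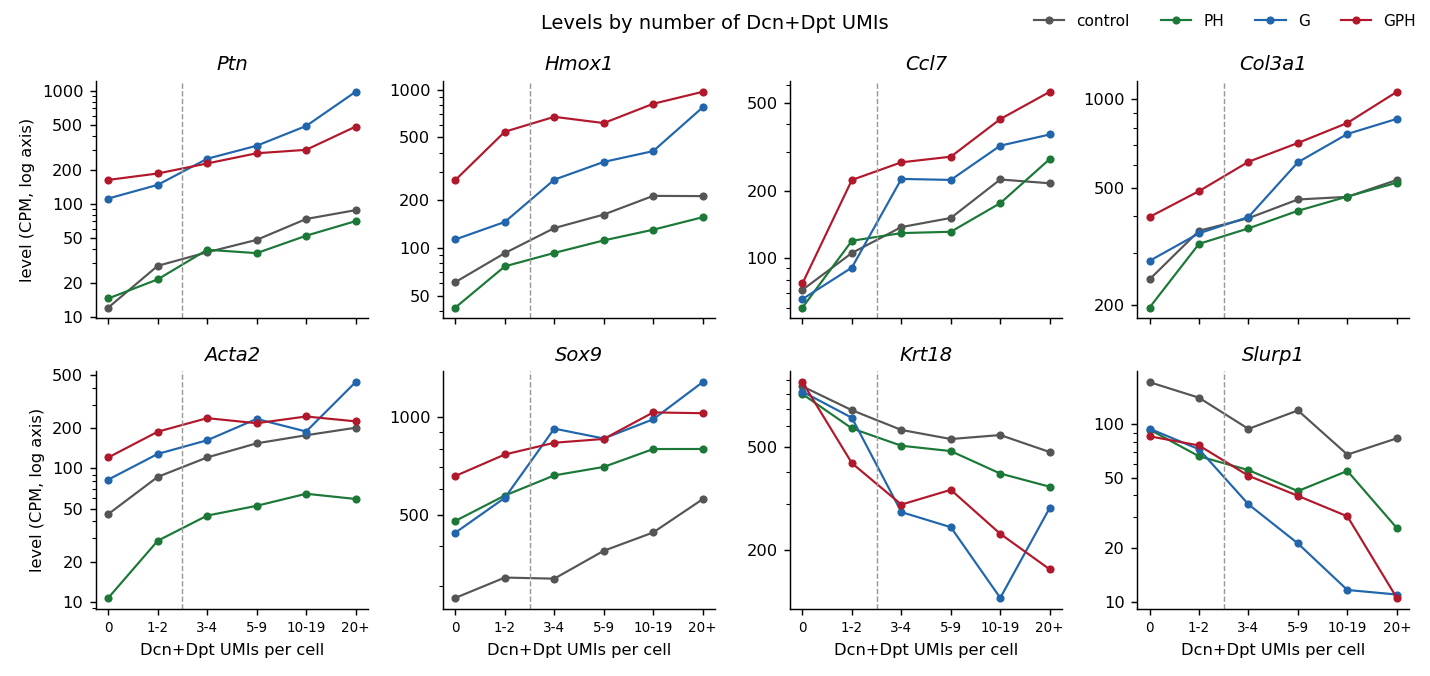
Level (CPM, log axis) of 8 genes against the number of Dcn and Dpt UMIs per cell, 1 line per library; cells right of the dashed line are members. Ptn, Hmox1, Ccl7, Col3a1 and Sox9 are higher in the group with 20 or more UMIs than in the group with 3 to 4, and Slurp1 is lower. Acta2 is higher there in all libraries but GPH, and Krt18 is lower there in all but G.

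After thinning to 5000 UMIs, 17.7% of control members held a Ptn UMI (15.9 to 19.6), against 4.42% of zero cells and 0.629% of immune barcodes. In PH the shares were 14.1%, 3.58% and 1.97%, and in G 41.9%, 14.8% and 0.561%. In GPH 39.9% of members and 20.3% of zero cells held one, and none of 19 immune barcodes did. Unthinned, 27.6%, 22.8%, 47.2% and 50.5% of members held one. In control, PH and G the share in members was thus well above that in immune barcodes, while the 19 of GPH bound it only loosely. Hmox1 was seen in 40.6%, 32.7%, 61.7% and 79.6% of thinned members and in 17.3%, 13.7%, 25.7% and 44.6% of zero cells. Immune barcodes, which may make some of these genes themselves, gave 12.6%, 37.5%, 12.7% and 15.8%, so in PH the members' share was not above theirs. The same held in PH for Ccl7 (28.8% of members and 30.9% of immune barcodes), C3 (18.3% and 19.7%) and Cxcl10 (18.9% and 34.9%). For Cxcl10 it also held in control (6.93% and 12.6%), G (16.1% and 25.2%) and GPH (11.1% and 15.8%). In GPH the members' share of Cxcl10 was also under the 13.0% of zero cells.

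Between libraries, members were compared for PH, G and GPH against control, and for GPH against G and against PH. The first 3 share the control library, so their likeness is no separate evidence. A gene counted as measured at 20 CPM in 1 of the 2 libraries and 20 UMIs over both, and a 1.5-fold difference is a size and not a test. Where 4 levels follow each other, they belong to the control, PH, G and GPH libraries. The values are sums over members, so fewer expressing members and less RNA per member cannot be told apart. Some library differences were not particular to members. Ptn, Hmox1, Has2, C3 and Spp1 were higher in G and GPH than in control and PH in zero cells too. There Has2 stood at 22.49, 18.98, 65.45 and 147.6 CPM and C3 at 12.90, 11.69, 42.85 and 182.4 CPM. Against this, Krt18, lower in G and GPH members, stood at 853.5, 797.1, 814.6 and 886.0 CPM in zero cells. Krt8 stood at 579.7, 698.5, 647.9 and 716.3 CPM there.

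Against control, PH members had higher levels of most NF-kappaB feedback and inflammatory fibroblast genes and lower levels of most interferon, MHC class II and glycolysis genes. Ccl7 was not among the higher genes (182 CPM in control and 156 in PH). Of 4650 measured genes, 434 (9.33%) were at least 1.5-fold higher and 480 (10.3%) at least 1.5-fold lower; with mitochondrial and ribosomal protein genes taken out of the total, the split was 872 and 419. Tnfaip3, which switches NF-kappaB signalling off, stood at 12.1, 103, 32.4 and 45.3 CPM. It was 8.55-fold higher in PH than in control (7.66 to 9.55). Slc7a11, the cystine importer, stood at 16.3, 133, 64.3 and 62.0 CPM and was 8.17-fold higher (7.43 to 8.99). Ccl2, which attracts monocytes, stood at 386, 1555, 1007 and 905 CPM and was 4.03-fold higher. PH was the highest library for all 3. Also higher were the nuclear receptor Nr4a2 (4.34-fold), the long non-coding RNA Neat1 (3.58-fold), the glucocorticoid-induced chaperone Fkbp5 (2.78-fold), Cxcl10 (2.76-fold), the EGF receptor ligand Ereg (2.74-fold), the NF-kappaB subunit gene Nfkb1 (2.67-fold) and Idh1 (2.99-fold).

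Of 13 measured genes of NF-kappaB feedback, 8 were higher and none lower in PH, with a median log2 ratio of 0.99 against -0.02 for all genes. Of 15 inflammatory fibroblast genes, 11 were higher and none lower (median 1.13, and 0.67 in Dpt-only members). All 6 measured MHC class II genes were lower (median -1.31). Their invariant chain Cd74 stood at 570, 228, 1029 and 901 CPM, lowest in PH. Of 10 type I interferon genes 8 were lower and 1, Cxcl10, higher (median -0.97); Isg15, an interferon-induced ubiquitin-like modifier, stood at 48.0, 17.0, 43.2 and 38.1 CPM. Of 11 MHC class I genes 3 were lower and none higher (median -0.50), and of 21 genes of hypoxia and glycolysis 12 were lower and none higher (median -0.64). The glycolytic enzyme gene Aldoa stood at 1027 CPM in control and 490 CPM in PH. The largest deficits were in Nmt1, an N-myristoyltransferase (5.35-fold lower), Spata7 (4.88-fold), the Notch target Hes1 (3.85-fold), Hypk (3.15-fold), Acta2 (3.09-fold), the matrix genes Spon2 (2.92-fold) and Mfap4 (2.89-fold), the tendon transcription factor Scx (2.797-fold) and the tubulins Tuba1c (2.86-fold) and Tuba1b (2.75-fold). Tubulin genes have near-identical copies, and Hypk shares exons with Serf2, so their counts are uncertain. Among small leucine-rich proteoglycans outside the rule, Bgn, Prelp and Ogn were at least 1.5-fold lower in PH and Fmod was not (27.9 and 21.7 CPM), with Bgn at 196 and 90.7 CPM, Prelp at 71.4 and 34.3 CPM and Ogn at 119 and 66.9 CPM in control and PH.

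G members had the highest levels of the 4 libraries for Ptn and for the chemokine genes Cxcl2, Cxcl9 and Cxcl10. Of 4700 measured genes, 604 (12.9%) were at least 1.5-fold higher than in control and 515 (11%) at least 1.5-fold lower. Ptn stood at 61.1 CPM in control (58.4 to 64.0), 44.5 in PH, 424 in G (402 to 446) and 327 in GPH, and was 6.93-fold higher in G than in control (6.47 to 7.43). Cxcl2, a neutrophil chemokine, stood at 14.9, 77.8, 277 and 136 CPM, 18.6-fold higher in G than in control. Rarres2 (chemerin) stood at 5.15, 6.53, 86.8 and 68.9 CPM and was 16.9-fold higher. The siderophore-binding Lcn2 was 11.3-fold higher, complement C3 5.97-fold, Cxcl9 5.80-fold, the IL-6 family cytokine Lif 5.33-fold, the hyaluronan synthase Has2 5.10-fold, the transcription factor Onecut2 5.01-fold and Cxcl10 4.61-fold. Of 16 inflammatory fibroblast genes 15 were higher and none lower, with a median log2 ratio of 1.76. Immune marker RNA was also highest in G members, by the summed values above, and its part in these differences was not tested. After thinning, 42.3% of G members held a C3 UMI against 20.5% of immune barcodes, and 40.7% held a Has2 UMI against 0.224%. For Cxcl10 the share was 16.1% in G members, 17.5% in zero cells and 25.2% in immune barcodes, so the members' share was above neither.

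Lower in G than in control were Spata7 (8.06-fold), Slurp1 (4.40-fold), Nmt1 (3.90-fold), Hes1 (3.43-fold), Scx (3.15-fold), the water channel Aqp5 (2.79-fold) and the farnesyl diphosphate synthase gene Fdps (3.38-fold). The immediate early genes Ier2 (3.18-fold), Socs3 (2.79-fold) and Junb (2.51-fold) were lower too. Of 11 measured genes of cholesterol synthesis 8 were lower and none higher (median log2 ratio -1.06). Of 14 NF-kappaB feedback genes 8 were higher and none lower (median 0.70). All 5 measured hyaluronan genes were higher (median 1.00), among them the receptor gene Cd44 at 109, 215, 221 and 238 CPM. Of 15 genes of TGF-beta and activin signalling 7 were higher and none lower (median 0.48). Inhba, the activin A subunit, stood at 81.8, 90.2, 296 and 370 CPM, and the TGF-beta target Pmepa1 at 89.0, 107, 241 and 316 CPM, so both G and GPH lay above control and PH. Of 22 hypoxia and glycolysis genes 7 were lower and 1 higher (median -0.40).

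Of the 3 libraries set against control, GPH had the most genes past 1.5-fold. Of 5091 measured genes, 1250 (24.6%) were at least 1.5-fold higher and 476 (9.35%) at least 1.5-fold lower. With median-of-ratios scaling the split was 760 and 857, and with the length classes subtracted 622 and 501, so the excess of higher genes depends on the scaling. The following values are to be read against the shift of 0.20 log2 units over all genes. Lcn2 stood at 7.33, 20.7, 82.7 and 143 CPM, 19.5-fold higher in GPH than in control (16.9 to 22.5). C3 stood at 40.0, 53.7, 239 and 416 CPM and was 10.4-fold higher (9.77 to 11.1). Has2 stood at 29.2, 28.9, 149 and 198 CPM and was 6.78-fold higher. For all 3, G and GPH lay above control and PH. Further genes were Rarres2 (13.4-fold), the matrix protease Mmp19 (8.73-fold), the kinase Dclk1 (8.20-fold), the transcription factors Tshz2 (7.99-fold) and Onecut2 (7.39-fold), Neat1 (6.90-fold) and the secreted chaperone clusterin, Clu (6.53-fold).

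The marker genes moved apart in GPH. Dpt stood at 212, 212, 365 and 526 CPM, highest in GPH, and Dcn at 474, 276, 415 and 232 CPM, lowest in GPH. These 2 genes chose the members and are given as a description. Hmox1 stood at 180 CPM in control (175 to 185), 114 in PH, 392 in G and 767 in GPH (752 to 782), with PH lowest and GPH highest. Hmox1 was 6.73-fold higher in GPH than in PH (6.46 to 7.01). Of the 9 haem and iron genes measured in GPH against control, Hmox1 included, 2 were higher and none lower (median log2 ratio 0.02), the other being Alas1, the first enzyme of haem synthesis. In GPH against PH 4 of 9 were higher and none lower (median 0.30). The ferritin heavy chain gene Fth1 stood at 6960, 7271, 6762 and 7056 CPM. Nrf2-type antioxidant genes were higher in 10 of 19 and lower in 1 (median 0.62). Spp1 stood at 1582, 1819, 3499 and 6246 CPM, again highest in GPH. Pdgfrb, a receptor of mesenchymal cells and pericytes, stood at only 1.43, 1.49, 14.6 and 10.9 CPM, under the 20 CPM needed to count as measured.

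**Figure D4:**
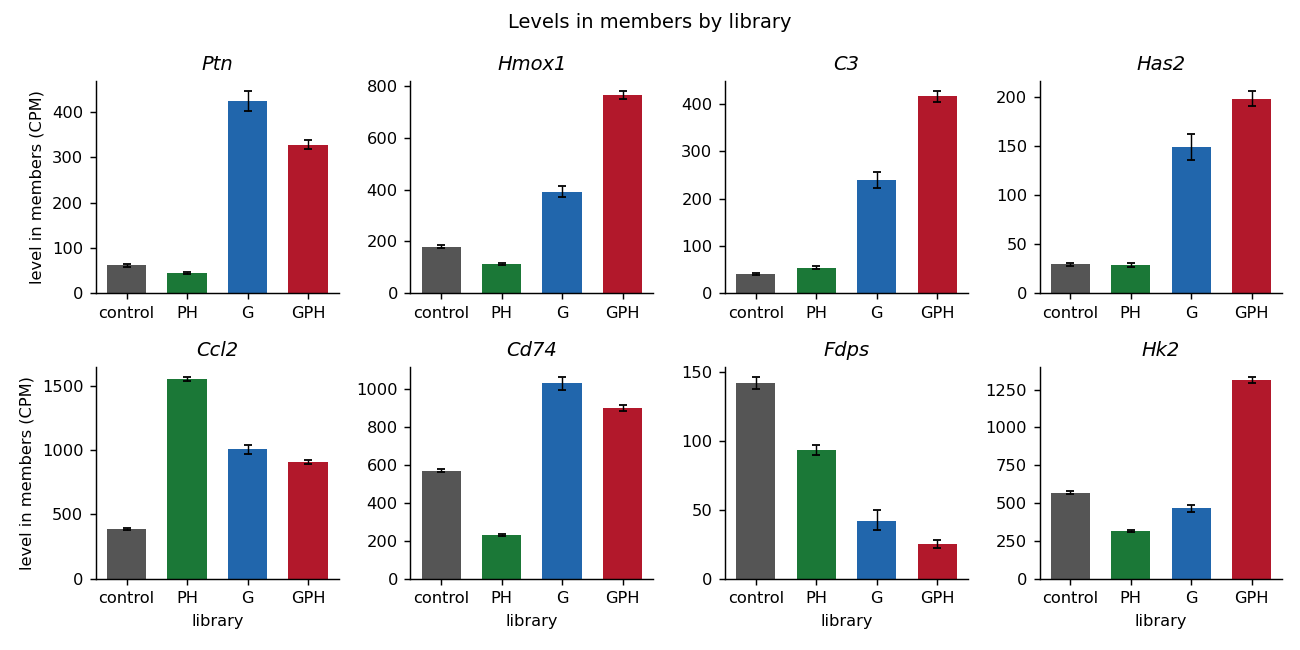
Level in members (CPM, vertical axis from 0) of 8 genes in the 4 libraries, with 95% counting intervals. Ptn, Hmox1, C3 and Has2 are higher in G and GPH than in control and PH, Ccl2 is highest in PH, Cd74 is lowest in PH, Fdps is lowest in GPH and Hk2 highest in GPH.

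Of 17 measured inflammatory fibroblast genes 16 were higher in GPH than in control, and 1, the T cell chemokine gene Ccl5, was lower (median log2 ratio 1.78, and 1.58 with the length classes subtracted). Ccl5 stood at 44.9, 63.5, 197 and 10.2 CPM, highest and lowest in the same libraries as the immune marker sums. Of 11 measured genes of cholesterol synthesis 10 were lower and none higher, with a median log2 ratio of -1.53 (-2.49 to -0.99). Idi1, isopentenyl diphosphate isomerase, stood at 57.5, 34.2, 22.5 and 5.62 CPM and was 10.2-fold lower in GPH than in control. Fdps stood at 142, 93.5, 42.1 and 25.3 CPM and was 5.62-fold lower, and Cyp51 was 3.46-fold lower. Levels of Idi1 and Fdps were thus ordered control, PH, G and GPH from high to low. Other genes lower in GPH were Fabp5 (5.17-fold), the mitophagy receptor Bnip3 (4.22-fold), Stmn1 (4.02-fold), the prostaglandin D synthase gene Ptgds (3.77-fold), Tmsb10 (3.21-fold), Scx (2.96-fold) and Lgals1 (2.70-fold).

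The series' design text names autophagy and endoplasmic reticulum (ER) stress transcripts as a question for the GPH group. Of 20 measured autophagy genes, 4 were higher and 4 lower than in control, with a median log2 ratio of 0.21 against 0.20 for all genes (0.02 with the length classes subtracted). The receptor gene Sqstm1 stood at 359, 460, 533 and 667 CPM and Map1lc3b at 276, 284, 306 and 310 CPM, while Map1lc3a stood at 251, 144, 153 and 139 CPM. Of 26 lysosome genes 13 were higher and none lower (median 0.63, and 0.42 with the length classes subtracted or 0.28 at 50 CPM). The protease gene Ctsb stood at 165, 166, 229 and 431 CPM. Of 22 ER chaperone and degradation genes 3 were higher and none lower (median 0.29), and the chaperone gene Hspa5 stood at 532, 484, 1089 and 898 CPM, highest in G. Of 13 genes of the integrated stress response 8 were higher and 1, Phgdh, was lower (median 0.97, and 0.88 with the length classes subtracted), but with genes down to 5 CPM counted as measured the median was 0.08. Its transcription factors Atf4 and Ddit3 stood at 118, 87.6, 88.5 and 237 CPM and at 48.9, 29.7, 45.6 and 119 CPM, and GPH was highest for both. Gdf15, a stress cytokine, stood at 0.0652, 0.534, 15.2 and 23.3 CPM.

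The counts that follow, all for GPH against control, stand beside 24.6% higher and 9.35% lower among all measured genes. The medians of collagens and matrix genes depended on length. Of 10 collagen genes 5 were higher and none lower (median 0.63, and 0.20 with the length classes subtracted), of 15 matrix glycoprotein genes 9 were higher and 1 lower (median 0.64, and 0.19 so adjusted), and of 10 matrix proteases and inhibitors 6 were higher and none lower (median 0.82, and 0.86 so adjusted). Fibronectin, Fn1, stood at 934, 1448, 1130 and 1738 CPM. Of 16 type I interferon genes 9 were higher and 2 lower (median 0.62, and 0.25 at 50 CPM to count as measured). Immediate early genes were higher in 17 of 26 and lower in 1 (median 0.69), TGF-beta and activin genes higher in 11 of 18 and lower in 1 (median 0.68, and 0.38 so adjusted), and NF-kappaB feedback genes higher in 10 of 13 (median 0.75). All 5 hyaluronan genes were higher (median 1.31, and 0.78 so adjusted). Heparin-binding growth factor genes were higher in 4 of 9 (median 0.51), EMT and adhesion genes higher in 6 and lower in 2 of 13 (median 0.39), and contractile genes higher in 1 and lower in 1 of 12 (median 0.03). Of 6 epithelial genes 2, Sox9 and Lcn2, were higher and 2, the keratins Krt8 and Krt18, were lower. Hypoxia and glycolysis genes were higher in 2 and lower in 8 of 21 (median -0.44), although Hk2, the first enzyme of glycolysis, stood at 570, 314, 467 and 1315 CPM. Of 8 measured genes on the list of the vitamin D receptor, its partners and its targets, 2 were higher (median 0.47). That share is near that of all genes, and Rxrb, Ncor1 and Med1 among the 8 are partners or cofactors and not targets. The p53 targets were higher in 3 and lower in 1 of 9 (median 0.34). The vitamin D receptor gene Vdr itself stood at 4.596, 3.02, 2.63 and 2.58 CPM, and its target Cyp24a1 had no UMI in members of any library. Of 5 genes that handle gemcitabine 1, Samhd1, was higher and none lower (median -0.26).

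GPH against G compares the libraries with and without the drug pair on gemcitabine, in which Y-linked RNA of members was alike at 18.1 and 20.5 CPM. Of 5003 measured genes, 744 (14.9%) were at least 1.5-fold higher and 185 (3.7%) at least 1.5-fold lower; with median-of-ratios scaling the split was 345 and 395, and with mitochondrial and ribosomal protein genes taken out of the total 695 and 361. With the length classes subtracted it was 357 and 309. Hes1 stood at 509, 132, 149 and 707 CPM, 4.75-fold higher in GPH than in G (4.35 to 5.21). Spata7 stood at 127, 26.1, 15.8 and 76.6 CPM and was 4.86-fold higher, and Nmt1 at 105, 19.6, 26.9 and 99.5 CPM and was 3.70-fold higher. Tuba1c stood at 115, 40.2, 41.5 and 131 CPM and was 3.17-fold higher. All 4 were low in PH and in G and high in control and in GPH. For Hes1 this was not particular to members. It stood at 426, 109, 90.6 and 551 CPM in zero cells and at 279, 71.6, 36.4 and 137 CPM in Krt19-high barcodes. Neat1 was 3.36-fold higher, the transcription factor Klf6 3.10-fold, Hk2 2.81-fold, Gadd45g 2.77-fold and both the mRNA decay factor Zfp36 and the eIF2alpha phosphatase subunit Ppp1r15a 2.92-fold. Immediate early genes were higher in 13 of 26 and lower in 1 (median 0.58), type I interferon genes higher in 9 of 16 with none lower (median 0.62), and integrated stress response genes higher in 6 of 13 with none lower (median 0.54). The medians are to be read against 0.19 for all genes. MHC class II genes were neither higher nor lower by 1.5-fold (median -0.39). Cholesterol synthesis genes were lower in 5 of 9 with none higher (median -0.60, and -0.09 in Dpt-only members). Lower genes were Bloc1s1 (5.55-fold), Fabp5 (4.44-fold), Stmn1 (3.83-fold), the glutathione transferase gene Gstp1 (3.37-fold), Bnip3 (2.92-fold), Phpt1 (2.63-fold), Tmsb10 (2.53-fold), Id2 (2.51-fold) and Selenoh (2.23-fold). Bloc1s1 and Phpt1 share exons with another gene on the same strand.

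GPH against PH compares the libraries with and without gemcitabine on the drug pair, with Y-linked RNA in the first alone. Of 5036 measured genes, 973 (19.3%) were at least 1.5-fold higher and 224 (4.45%) at least 1.5-fold lower; with median-of-ratios scaling the split was 639 and 418, and with mitochondrial and ribosomal protein genes taken out 841 and 503. With the length classes subtracted it was 627 and 376. Clu stood at 56.9, 24.3, 232 and 372 CPM and was 15.3-fold higher in GPH than in PH. Rarres2 was 10.6-fold, Dclk1 9.09-fold, C3 7.75-fold, Ptn 7.36-fold (6.89 to 7.85), Lcn2 6.90-fold, Has2 6.84-fold, Hmox1 6.73-fold, the complement gene C4b 6.26-fold and Hes1 5.34-fold higher. All 6 MHC class II genes were higher (median log2 ratio 1.28), as were 12 of 16 type I interferon genes with none lower (median 1.25). Collagen genes were higher in 8 of 10 with none lower (median 0.68), and 0.44 so adjusted for length, against 0.17 for all genes. Integrated stress response genes were higher in 7 and lower in 2 of 13 (median 1.09, and 0.23 with genes down to 5 CPM), and inflammatory fibroblast genes higher in 11 and lower in 2 of 17 (median 1.09). Cholesterol synthesis genes were lower in 9 of 10 (median -1.07). Lower genes were Stmn1 (4.85-fold), Bloc1s1 (3.88-fold), Fabp5 (3.78-fold), Fdps (3.69-fold), Cyp51 (3.52-fold), Idh1 (2.97-fold), Ptgds (2.72-fold), S100a6 (2.62-fold) and Tmsb10 (2.47-fold).

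**Figure D5:**
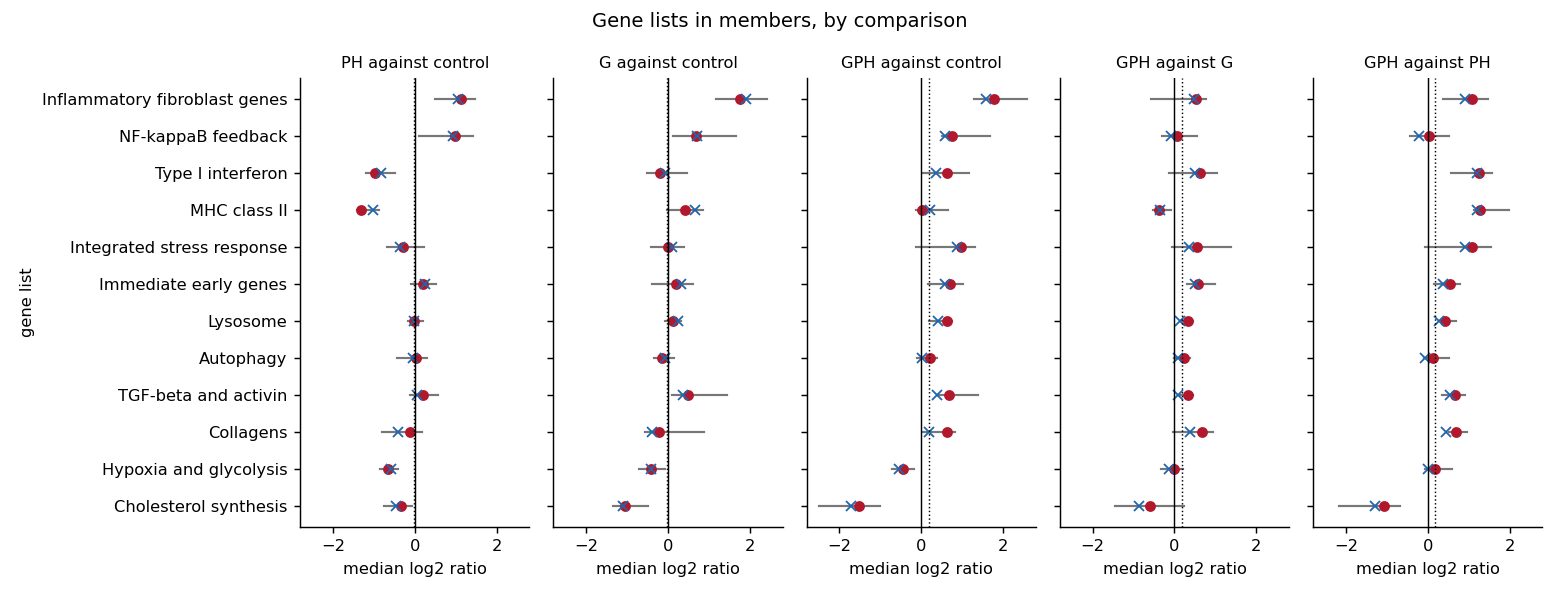
Median log2 ratio (horizontal axis) of 12 gene lists in members for each of the 5 comparisons; red points are medians with 95% order-statistic intervals over genes where the list allows one, blue crosses the medians with the length classes subtracted, and the dotted line the median of all measured genes. Inflammatory fibroblast genes lie highest in G and GPH against control and cholesterol synthesis genes lowest in GPH against control, while MHC class II genes lie low in PH against control.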

How the data were processed

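Single-cell RNA was measured in 4 libraries, 1 per group. The authors deposited raw UMI counts per gene and barcode (32285 features), without normalization. Per the submitters' processing notes they were made with Cell Ranger 6.1 on mm10, while the file headers name version 7.0.1; whether introns or strand entered the counting is not given in the sources used here. Members were found by the rule, and their counts were summed per library and scaled to CPM. No fit was possible with 1 library per group. Sums carry exact Poisson, shares exact Clopper-Pearson and ratios exact conditional binomial 95% intervals. In ratios, a count of 0 was replaced by 3 counts. Only the ratios between libraries, their intervals and the 1.5-fold calls were tested on simulated data. The simulated counts had no spread between cells or animals.

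Doublets were kept, as the rule keeps them. Scrublet in scanpy 1.11.5 called 1, 1, 280 and 1 barcodes in control, PH, G and GPH by its own threshold, so an alternative left out the highest scores at 0.8% per 1000 barcodes. Of features with a shared symbol (40), the first was counted, among them Ddit3. Transcript lengths and positions are from GENCODE vM21 and promoters from RefSeq, with 3 of 6 genes matched. Of 79 named genes, 31 overlap exons of another gene, 9 of them on the same strand (among them Bloc1s1, Col3a1, Fdps, Hypk, Neat1, Phpt1, Stmn1 and Tuba1b), and their counts are uncertain. Some genes that the naming rule picked are not reported here.

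Named genes were the 12 highest and 12 lowest by their smallest ratio over the 4 libraries (members against zero cells), and the 10 highest and 10 lowest by the interval bound nearest to 1 (between libraries), at 50 CPM or more. Left out were the rule's own genes, those of mitochondria, ribosomal proteins, globins, antibodies and T cell receptors, sex-linked markers and predicted genes, and genes whose CPM was under 0.1 of that in immune or keratin-high barcodes. Genes that carry a list were added. The members and the gene lists, 27 of which are given, were chosen with earlier results of these data known. Intervals used scipy 1.17.1 and tables pandas 2.3.3 with numpy 2.4.6, in Python 3.11.15; plots used matplotlib 3.10.9.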

Additional observations from a re-analysis of the deposited data

Results flagged for a closer look

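Several results had opposite directions with and without gemcitabine when the drug pair was added, and none of these differences could be tested with 1 library per group. For Hes1 the log2 ratio of GPH to G exceeded that of PH to control by 4.19. The same difference was 4.31 for Nmt1, 4.57 for Spata7 and 3.18 for Tuba1c. Hes1 was also lower in PH and G than in control and GPH in zero cells and in Krt19-high barcodes. Over the type I interferon list the difference of the medians was 1.59, taken over unlike sets: 16 genes were measured in GPH against G and 10 in PH against control.

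Barcodes that met every criterion except the mitochondrial limit were not used in any comparison. Of 9 such barcodes in G, 2 (22.2%, 2.81 to 60.0) held at least 3 UMIs of Dcn and Dpt, and of 8 in GPH, 4 (50%, 15.7 to 84.3) did. In PH it was 2 of 11 (18.2%), and control had no such barcode.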

How the results depend on the processing

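Shares of members depended on the threshold and on depth. With a minimum of 5 UMIs they were 26.3%, 12.3%, 21.0% and 48.6% in control, PH, G and GPH, after thinning 20.4%, 9.40%, 17.9% and 33.3%, and with Dcn alone at 3 UMIs 23.6%, 8.78%, 13.1% and 15.6%. With Dcn alone GPH was no longer the highest. Barcodes of at most 30000 UMIs gave 33.6% in control and 18.99% in PH, and leaving out the highest doublet scores gave 19.6% in PH. The 90 genes past 1.5-fold against zero cells in all 4 libraries became 149 after thinning, 46 at 50 CPM, 165 at 5 CPM, 13 at 2-fold and 59 with the length classes subtracted. Leaving out 1 library at a time (setting aside control, PH, G or GPH) gave 93 to 127. At 50 CPM, 5 CPM and 2-fold the counts were 478, 1725 and 172 for PH against control (914 as reported), 501, 2480 and 339 for G against control (1119), and 870, 3060 and 530 for GPH against control (1726). They were 402, 2215 and 212 for GPH against G (929) and 574, 2417 and 441 for GPH against PH (1197). GPH against control gave 1123 with the length classes subtracted, and GPH against G gave 1496 with Dcn alone. The median of the epithelial genes in G against control was -0.60 and turned to 0.060 after thinning and 0.10 with Dcn alone; the cause was not tested. Of the other list medians under alternatives, 191 moved and 1809 did not, and of the named genes' values 460 moved and 1152 did not. The list counts are no measure of stability, because a median can shift far and stay inside its interval over genes. For integrated stress response genes in GPH against control, the interval of -0.14 to 1.32 held both 0.97 and the 0.08 at 5 CPM. For collagens there, 0.05 to 0.82 held both 0.63 and the 0.20 with the length classes subtracted. The length classes, Dpt-only members and members with both genes were chosen after seeing the data. No paired analysis was possible because each group has 1 library. The few GPH immune barcodes (19) and G members (248) widen the counting intervals of their shares.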

Other observations

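Within members, the T cell receptor chain gene Cd3e stood at 6.19 CPM in control, 17.7 in PH, 33.9 in the G library and 21.5 in GPH members, whereas Cd3d stood at 2.35, 2.21, 9.93 and 0.0759 CPM and Cd3g at 3.36, 4.12, 9.06 and 0.152 CPM. In GPH, Cd3e was thus present with nearly no Cd3d or Cd3g. The acinar gene Reg1 had no UMI in members of control and PH and stood at 1.17 CPM in G and 62.0 CPM in GPH. Xist stood at 3.62, 5.61, 24.5 and 1.90 CPM, highest in G, the library whose members also held the most immune marker RNA.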
